A study of Bos taurus with 64 samples.

Results

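The back muscle Longissimus thoracis (LT) was compared with the hind-limb muscle Semitendinosus (ST) in the Normand cull cows that were slaughtered under limited stress. Arrays were chosen by their labels alone, the muscle and the limited stress handling, which gave 16 LT and 16 ST arrays, 32 of the 64 arrays of the series, and each LT array was paired with the ST array of the same cow. The cows were 4.5 ± 0.1 years old at slaughter, and all had been finished for 101 ± 3 days on a straw and concentrate ration enriched with lipids from extruded linseed and rapeseed. For 8 of the 16 cows this was the control diet, and for the other 8 (EP diet) vitamin E and plant extracts rich in polyphenols were added. All 16 were transported with a companion animal and handled calmly, and both muscles were sampled within 15 minutes of slaughter. The remaining 32 arrays came from 16 cows on the same diets that were isolated during transport and led through a labyrinth for 30 minutes, called stressed cows here. Each array was a 1-colour custom Agilent array weighted towards muscle genes, so shares of the transcripts on it are not shares of the genome.

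LT supports the trunk, whereas ST moves the hind limb. Skeletal muscle is a mixture of slow fibres, which burn fat and sugar in mitochondria, and fast fibres, which rely more on glycogen and glycolysis, and each kind builds its contractile apparatus from its own myosins, troponins and calcium pumps. Parvalbumin, which buffers calcium in fast fibres, and myosin binding protein H, a thick filament component, are among the genes whose levels are known to vary between muscles. Whole muscle was measured, so that fewer fibres of a type and less RNA per fibre cannot be told apart.

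The sequences below are stretches of array probes, shown because the largest differences rested on gene-named sets and on related sets without a gene name. The array describes several sets only by a code, and some of these resemble a named set closely. In the first group Target1376, which shares up to 50 bases with the parvalbumin (PVALB) probes, is set beside a pair of unnamed sets that also were higher in ST, with capitals where a base differs from Target1376.
Target1376 (PVALB): aagaaggtattccacatcctggataaagac
Homolog129: aagaaggtGttTcacatGctggaCaaGgac
Homolog165: aagaaggtGttccacatTctggaCaaagac
Homolog129 matched Target1376 at 25 of these 30 bases and Homolog165 at 27. In the second group, Target1178, which shares up to 44 bases with the myosin binding protein H (MYBPH) probes, is set beside Homolog13, which was higher in LT like it.
Target1178 (MYBPH): ttgagcgagacttctcagaagccccctcgt
Homolog13: ttgagcgagacttctcagaagcGccctcgt
The stretch matched at 29 of 30 bases. Because such probes could bind the same RNA, related sets are given side by side and are not counted as separate genes in what follows. A pair of further sets of large difference, neither of which carries a gene symbol, are shown by the first 30 bases of a probe.
ENSBTAT00000016117: gtttctctttaatccttatttgacacgaaa
Target1005: tgactacatgctcctcatggactttgtgcc
The first of these is described on the array as similar to the homeobox gene Hox-C8 and lies at chr5:28872635-28872694 on the minus strand of the Btau 3.1 build. Target1005 carries no description.

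Levels are given on a log2 scale as the signal of a probe divided by the 75th percentile of its array, averaged over the probes of a transcript, and differences are LT minus ST within a cow. The 75th percentile signal was 2760 to 3988 in LT and 2628 to 3805 in ST, and 72.9% to 80.9% of the probes of an array were well above background. Each slide held arrays of 1 muscle only, so slide and muscle cannot be told apart, and 14.9% of the probes differed between the 4 LT slides, against 0.144% between 4 ST slides. The first principal component, with 24.9% of the variance, placed all LT arrays between -29.5 and -11.9 and all ST arrays between 12.3 and 33.6. Probes were tested in limma with cow as a block. A call required that 80% or more of the probes of a transcript passed, in 1 direction, at an adjusted p (Benjamini-Hochberg) below 0.1.

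Of 4290 transcripts tested, 2318 (54.0%) were called, 963 (22.4%) higher in LT and 1355 (31.6%) higher in ST. Most differences were small: the median size of a called difference was 0.31, and 1779 of the called transcripts (76.7%) differed by under 0.5. The median over all transcripts was -0.04, and the direction of small differences depended on how arrays were scaled. Scaling to the 536 flagged control features moved that median to 0.28 and the calls to 1603 higher in LT and 131 higher in ST. The study also scaled to control probes but described a larger number of them, so these counts need not be those of its scaling. Without scaling the median was 0.14, with 1803 and 473 calls, and with spike-in features -0.14, with 459 and 1508. For most called genes named here and most lists that turned sign between these, a value is given beside the result or with the other scaling results. The 2-fold set was smaller, with 55 transcripts (1.28%) higher in LT and 52 (1.21%) higher in ST. Its balance moved with the processing, to 134 and 21 with control features, 86 and 32 without scaling, 39 and 68 with spike-in features, 23 and 19 after quantile normalization, and 36 and 38 with probes above background on all 32 arrays. All 107 were also called, at whatever size, after scaling to control features, to spike-in features and after quantile normalization, and with slide as a random block. Complete separation of the arrays was rarer: every LT array lay above every ST array for 14 transcripts (0.326%), and every ST array above every LT array for 39 (0.909%).

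The largest difference higher in LT was that of MYBPH. Its level in LT was -1.93 at the lowest, -0.34 at the median and 0.86 at the highest, against -6.91, -4.88 and -2.84 in ST. No ST array reached the lowest LT array, and LT was higher in 16 of 16 cows, by 4.51 ± 0.345 (SE), or 22.7-fold (limma, adjusted p = 2.2e-08). The probe set Target1178 gave 4.42 and a further MYBPH probe 2.67, so the probes of the gene agreed in direction but not in size. Its relative Homolog13 had levels of -7.01 to -4.10 in LT and -10.16 to -7.42 in ST. Only 4 of the 16 ST arrays were well above background and the set passed the filter on dim probes through LT, so the measured difference of 3.89 is set largely against background and its size is uncertain. MYBPHL, a close homologue of MYBPH whose probe lies at chr3:36801061-36801120, had medians of -2.97 in LT and -5.93 in ST, again without overlap, and differed 8.22-fold (3.04 ± 0.238, adjusted p = 2.7e-08).

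ENSBTAT00000016117, the Hox-C8-like transcript, stood out for how little it varied. It lay between -4.11 and -2.85 in LT, with a median of -3.41, and between -7.37 and -6.36 in ST, with a median of -7.01. The difference of 3.61 ± 0.0991 (12.2-fold, adjusted p = 3.9e-14) had a far smaller SE than that of MYBPH, and the lowest LT array lay well above the highest ST array. A 5-probe set for MICAL2, which encodes an enzyme that oxidises actin, ranged from -4.80 to -2.62 in LT and from -7.48 to -5.35 in ST. It did not overlap either and differed 7.71-fold (2.95 ± 0.203, adjusted p at most 1.9e-08 over its probes).

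**Figure D1:**
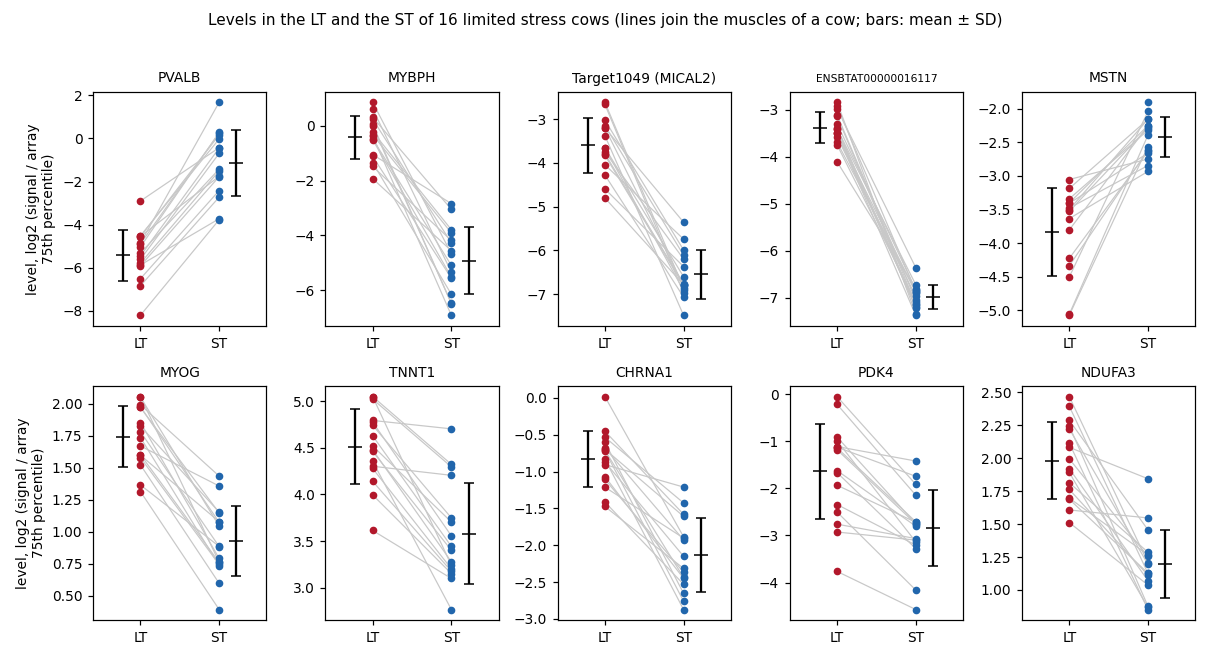
Levels of 10 transcripts in both muscles of the 16 limited stress cows, as log2 of the signal over the 75th percentile of the array. Points are arrays, grey lines join the muscles of a cow, and bars give the mean ± SD. MYBPH, Target1049 (MICAL2), ENSBTAT00000016117 and MSTN show no overlap of LT and ST, whereas PDK4 ranges widely within each muscle and is still higher in LT in all 16 cows.

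Signalling and enzyme genes followed among those higher in LT. NPPC, the C-type natriuretic peptide, had a median of -6.11 in LT and -8.27 in ST, where only 5 of the 16 arrays were well above background, so the measured difference of 1.99 is uncertain in size. MAOB, which breaks down monoamines, differed by 1.47 ± 0.163 in 16 of 16 cows, with all arrays above background. CYP19, the aromatase that makes oestrogens, also differed by 1.47, but only 9 LT and 2 ST arrays were well above background. OXTR, the oxytocin receptor, gave 1.20 with 5 ST arrays well above background, and ANXA9, an annexin, 1.41 with 7. NPPC, OXTR and ANXA9 passed the filter on dim probes through LT, a choice that favours a difference, and these sizes are uncertain like that of CYP19. MPPED2 differed by 1.35 and SRD5A2L2 by 1.30.

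A pair of genes with established roles in muscle were in the same group. CHRNA1, the alpha subunit of the muscle acetylcholine receptor, lay between -1.47 and 0.02 in LT (median -0.77) and between -2.87 and -1.21 in ST (median -2.23). The ranges overlapped slightly, and the difference was 1.30 ± 0.125 in 16 of 16 cows (2.46-fold, adjusted p = 2.4e-07). PDK4, which blocks the entry of pyruvate into mitochondrial oxidation, ranged from -3.76 to -0.05 in LT (median -1.40) and from -4.57 to -1.42 in ST (median -2.78). Its ranges overlapped widely, but within cows LT was higher in 16 of 16, by 1.20 ± 0.153 (2.30-fold, adjusted p = 5.3e-06).

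In the opposite direction, parvalbumin differed most. The PVALB probe at chr5:80832225-80832284 ranged in LT from -8.22 through a median of -5.39 to -2.90, and in ST from -3.78 through -1.06 to 1.68. ST was higher in 16 of 16 cows, although the highest LT array exceeded the lowest ST array, and the difference was -4.28 ± 0.258, or 19.5-fold (adjusted p = 1.6e-09). A further PVALB probe gave -4.30, with 14 of 16 LT arrays well above background, and the 5 probes of Target1376 lay between -4.46 and -3.47. The unnamed relatives were higher in ST in 16 of 16 cows as well, Homolog129 by 2.94 on the log2 scale (7.69-fold) and Homolog165 by 2.76 (6.76-fold). Another set, Target1380, holds the same 5 sequences as Homolog129 and is not an independent measurement.

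Target1005 separated the muscles most cleanly among the unnamed sets. It lay between -6.65 and -5.69 in LT (median -6.03) and between -3.15 and -2.69 in ST (median -2.90). The mean difference over its 5 probes was -3.15 ± 0.141, with single probes from -5.40 to -0.96 (adjusted p at most 0.0049). All 5 probes were thus higher in ST, although by very different amounts.

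Several signalling genes were higher in ST. CCRL1, an atypical chemokine receptor, had medians of -6.71 in LT and -3.92 in ST and differed by -2.89 ± 0.274 (7.42-fold, adjusted p = 2.1e-07). CRHR2, a receptor for urocortins and corticotropin-releasing hormone, differed by -2.69 as measured, but only 2 of the 16 LT arrays were well above background against 15 in ST. It passed the filter through ST, so the size is uncertain. SMAD9, which carries bone morphogenetic protein signals to the nucleus, ranged from -8.10 to -5.30 in LT and from -5.38 to -3.56 in ST. Those ranges met only at their ends, 13 of the 16 LT arrays were well above background, and the difference was -2.23 ± 0.153 (4.68-fold, adjusted p = 7.6e-09). Smaller differences of this kind were found for HS3ST2, which sulfates heparan sulfate (-1.75, 10 LT arrays well above background), the adhesion molecule ALCAM (-1.68), GPLD1, which releases glycolipid-anchored proteins (-1.61), and the lens crystallin gene CRYBB2 (-1.25).

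A last group of transcripts higher in ST had tight levels. MOSPD1 did not overlap between muscles, with -3.40 to -2.11 in LT and -1.57 to -0.81 in ST, a difference of -1.56 ± 0.103. The kinase gene UHMK1 did not overlap either and differed by -1.21 ± 0.0983. MT2A, a metallothionein that binds zinc and copper, overlapped but differed with the smallest SE among the 2-fold transcripts named here, by -1.24 ± 0.0627 (adjusted p = 2.1e-10). MSTN, which encodes myostatin, an inhibitor of muscle growth, ranged from -5.07 to -3.06 in LT (median -3.53) and from -2.93 to -1.91 in ST (median -2.36). All ST arrays thus lay above all LT arrays, with a difference of -1.38 ± 0.173 in 15 of the 15 cows with both spots usable (adjusted p = 6.2e-06). A second MSTN probe, which shares 46 bases with the first, gave -1.40 in 16 of 16 cows.

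**Figure D2:**
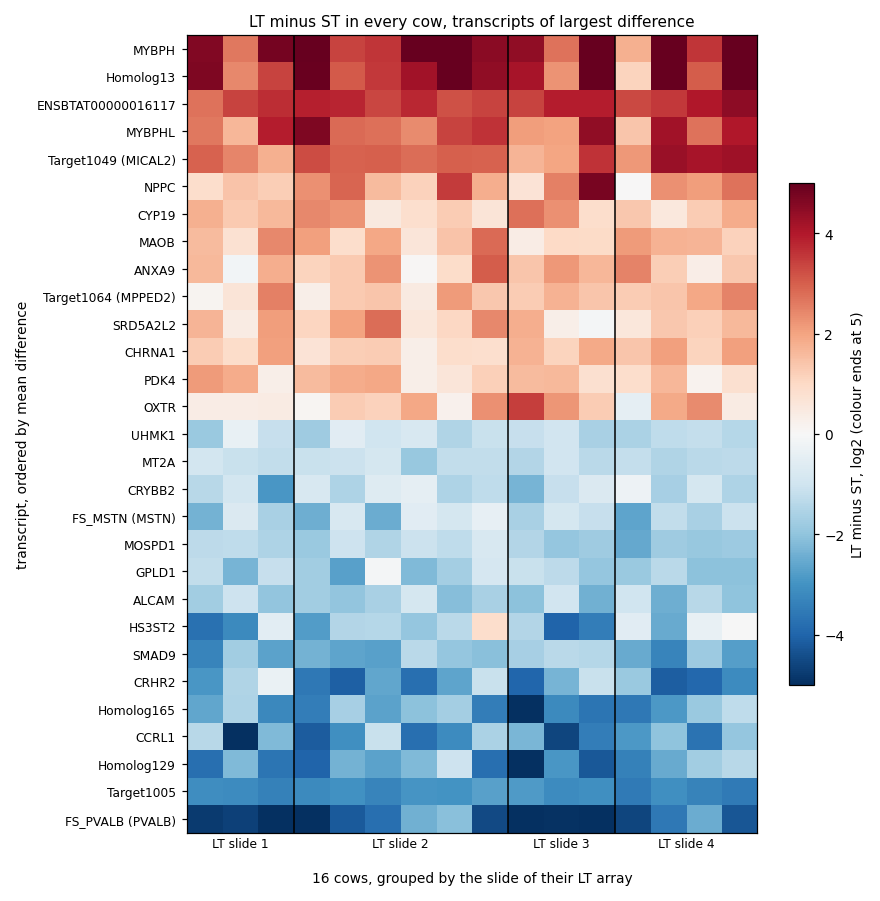
LT minus ST (log2) in each of the 16 cows for 29 named or unnamed transcripts of large difference, with rows ordered by mean difference and columns grouped by the slide of the LT array. Red is higher in LT and blue is higher in ST, and the colour ends at 5. PVALB and MYBPH keep their sign in the cows of all 4 LT slides, and the few pale or reversed cells are in rows such as ANXA9, OXTR and HS3ST2.

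The 2-fold differences were also looked at within subsets of the same cows. The transcripts were chosen in all 16 of these cows, so agreement in the subsets is partly built in and is not replication. Of the 55 transcripts higher in LT, 55 were called in the control diet cows alone and 52 in the EP diet cows alone, and of the 52 higher in ST, 51 and 51. The mean difference kept its sign in the cows of each of the 4 LT slides for 52 and 49 of them, and 31 and 40 had the same sign in all 16 cows. Transcripts with a cow lost to outlier spots, such as the MSTN probe with 15 usable cows, are not in these last counts. With limma, 0 transcripts (0%) were called for a muscle difference that depended on diet, with 171 of 10420 probes at unadjusted p below 0.05.

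The contractile genes of slow fibres were mostly higher in LT. Of 16 slow fibre transcripts (9 genes) 12 were called higher in LT, against 22.4% of all transcripts, and 1 higher in ST. With spike-in features 10 and 1 were called. The median difference was 0.53 against -0.04 over all transcripts, and it stayed above 0 under the 5 scalings tried. MYL6B, a slow myosin light chain, ranged from 0.90 to 5.18 in LT (median 3.43) and from 0.31 to 4.42 in ST (median 1.71). Its spread between cows was wide in both muscles, and the difference was 1.59 ± 0.348 in 13 of 16 cows (3.01-fold, adjusted p = 0.001). The slow troponin T gene TNNT1 ranged from 3.61 to 5.05 in LT (median 4.50) and from 2.77 to 4.70 in ST (median 3.42), and LT was higher in 16 of 16 cows by 0.93 ± 0.109 (1.91-fold, adjusted p = 2.1e-06).

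Slow troponin C (TNNC1) differed by 0.53, the slow calcium pump ATP2A2 by 0.52, the ventricular and slow light chain MYL3 by 0.52, and CSRP3, a Z-disc protein, by 0.58. Each was higher in LT in 13 cows. MYL3 was no longer called with slide as a random block (adjusted p = 0.15). The slow myosin heavy chain probe of MYH7 went the other way, with medians of 6.19 in LT and 6.31 in ST and a difference of -0.10 ± 0.0396 (adjusted p = 0.035), which turned to 0.23 after control feature scaling. Its 5-probe set gave 0.18 and was not called, so the probes of MYH7 disagreed. MYL2 disagreed as well, with 0.01 for a single probe at a level near 6 in both muscles, not called, and 0.26, called, for its probe set. MYOZ2 differed by 0.28 and was not called.

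Apart from parvalbumin, the measured differences of the fast fibre genes were small. Several of their single probes were bright, such as that of TNNC2 with medians of 6.92 in LT and 7.10 in ST. Whether the array resolves differences at such levels was not tested. Of 18 transcripts (9 genes) 12 were called higher in ST, against 31.6% of all transcripts, and 0 in LT. The median of -0.15 turned to 0.19 after control feature scaling and to 0.03 without scaling. TNNC2, the fast troponin C, differed by -0.18 ± 0.0418 and MYH1, the heavy chain of IIx fibres, by -0.19 ± 0.0467, which turned to 0.14 and 0.15 after control feature scaling. The fast calcium pump ATP2A1 (-0.16), MYL1 (-0.15), TPM1 (-0.14) and MYOZ1 (-0.11) also were higher in ST by under 0.2, and each turned to a value above 0 after control feature scaling. Probe sets of the same genes disagreed in part: the set for ATP2A1 gave -0.33, also called, and 1 of the sets for MYH1 -0.24, also called, whereas the other MYH1 set (-0.04) and those for TNNC2 (-0.10), TPM1 (-0.09) and MYOZ1 (-0.04) were not called. Outlier spots left 12 cows with a difference for ATP2A1, 13 for ACTN3 and 14 for TNNC2. The single probe of ACTN3 (-0.09) was not called but its probe set (-0.12) was, and MYH4 (0.11) was not called. Under each of the 5 scalings the median of the list lay below that of all transcripts. After control feature scaling only the 3 PVALB transcripts of this list were called higher in ST, and 1 of the 18 was called higher in LT.

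The nuclear genes of the respiratory chain were mostly higher in LT. Of 122 transcripts, 91 were called higher in LT, against 22.4% of all transcripts, and 5 higher in ST, with a median of 0.22 that was above 0 under the 5 scalings. The calls fell to 51 and 8 with spike-in features, rose to 108 and 0 with control features, and were 58 and 8 in stressed cows. NDUFA3, a subunit of complex I, ranged from 1.51 to 2.47 in LT (median 1.96) and from 0.85 to 1.84 in ST (median 1.16). LT was higher in 16 of 16 cows by 0.79 ± 0.0944 (1.72-fold, adjusted p = 2.8e-06). A further pair of complex I genes, NDUFS6 (0.58) and NDUFA12 (0.47), and the ATP synthase subunit gene ATP5D (0.48) were the next by size.

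The 5 transcripts of this list that were higher in ST were COX6B2 (-0.62), a pair for the complex I gene NDUFC1 (-0.33 each), ATP5S (-0.26) and COX4NB (-0.15). COX6B2 encodes an isoform of a complex IV subunit best known from testis, while COX4NB is the neighbour of a cytochrome oxidase gene and was listed for its symbol only. ATP5S turned to 0.06 and COX4NB to 0.18 after control feature scaling.

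Transcripts of mitochondrial DNA were split. Of 17 transcripts 8 were called higher in LT and 2 higher in ST, a total of 58.8% against 54.0% of all transcripts. The median was 0.16. ND4 ranged from 3.70 to 4.79 in LT (median 4.29) and from 3.16 to 4.16 in ST (median 3.52), a difference of 0.68 ± 0.1 in 15 of 16 cows. ND5 (0.58), ND2 (0.55) and ND4L (0.47) followed. ND6, which is encoded on the other strand of mitochondrial DNA, was higher in ST in 16 of 16 cows, with ranges of -5.62 to -4.48 in LT and -4.98 to -3.82 in ST, a difference of -0.82 ± 0.0966 (adjusted p = 2.5e-06). COX1 differed by -0.10, which turned to 0.22 after control feature scaling and 0.08 without scaling.

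All 10 citric acid cycle transcripts tested (7 genes) were called higher in LT, by 0.11 to 0.37, against 22.4% of all transcripts. Their median of 0.29 stayed above 0 under the 5 scalings. With spike-in features 4 of the 10 were called, and in stressed cows 7. Citrate synthase (CS) differed by 0.37 ± 0.0617 in 16 of 16 cows and IDH2 by 0.30.

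Of 29 transcripts for fatty acid uptake and oxidation 14 were higher in LT, against 22.4% of all transcripts, and 3 in ST, with a median of 0.15. With spike-in features 7 and 3 were called, with a median of 0.05, and with control features 21 and 0. Beside PDK4, the beta-oxidation enzyme subunit HADHA was 0.52 ± 0.0506 higher in LT, without exception among the 16 cows, and the electron carrier ETFA 0.45 ± 0.0486. UCP3, an uncoupling protein of the inner mitochondrial membrane, was the other way, with medians of 0.59 in LT and 1.13 in ST and a difference of -0.49 ± 0.0527 in 16 of 16 cows. The fatty acid transporter SLC27A1 differed by -0.14, which turned to 0.18 after control feature scaling and to 0.04 without scaling.

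Where called, transcripts for glucose uptake, glycolysis and glycogen were higher in ST, except for a probe of GYS1. Of 32 transcripts (17 genes) 18 were higher in ST, against 31.6% of all transcripts, and 1 in LT. The median of -0.13 turned to 0.20 after control feature scaling and 0.05 without scaling, below the median of all transcripts each time. With control features 2 were called higher in ST and 1 in LT. PFKFB3, which makes the main activator of phosphofructokinase, ranged from 1.39 to 4.32 in LT (median 2.62) and from 2.73 to 4.69 in ST (median 3.63). It was 2.13-fold higher in ST, in 14 of 16 cows (-1.09 ± 0.234, adjusted p = 0.00082).

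UGP2, which supplies glucose units to glycogen, was higher in ST in 16 of 16 cows (-0.49 ± 0.0376, adjusted p = 2.3e-08), and the insulin-responsive glucose transporter SLC2A4 in 14 (-0.45 ± 0.0717). Glycogen synthase GYS1 gave opposite calls, with 0.50 for a single probe of low level and -0.19 for its probe set, so no direction is given for this gene. A transcript described as similar to hexokinase-2, which commits glucose to use within the cell, was higher in ST in 16 of 16 cows, by 1.06 on the log2 scale, and was chosen after its value was seen (LOC614107, difference -1.06).

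**Figure D3:**
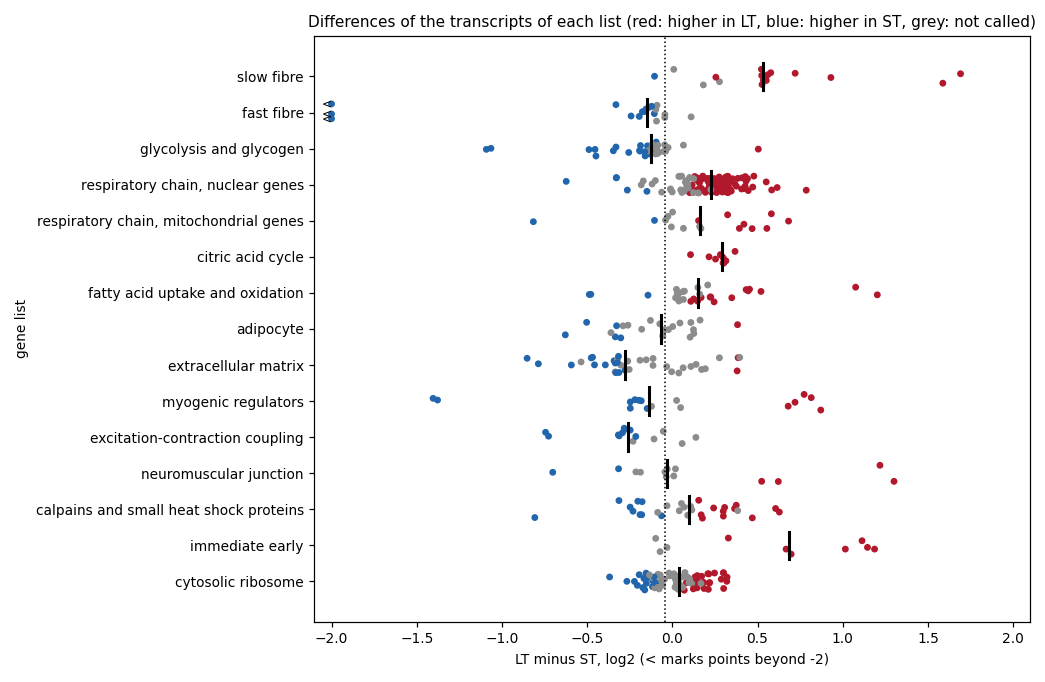
LT minus ST (log2) for each transcript of 15 gene lists, with points red where called higher in LT, blue where called higher in ST and grey where not called. Black bars are list medians and the dotted line is the median of all transcripts (-0.04). The slow fibre, respiratory chain, citric acid cycle and immediate early lists lie mostly to the right, whereas fast fibre and glycolysis points cluster just left of 0 apart from PVALB and PFKFB3.

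**Figure D4:**
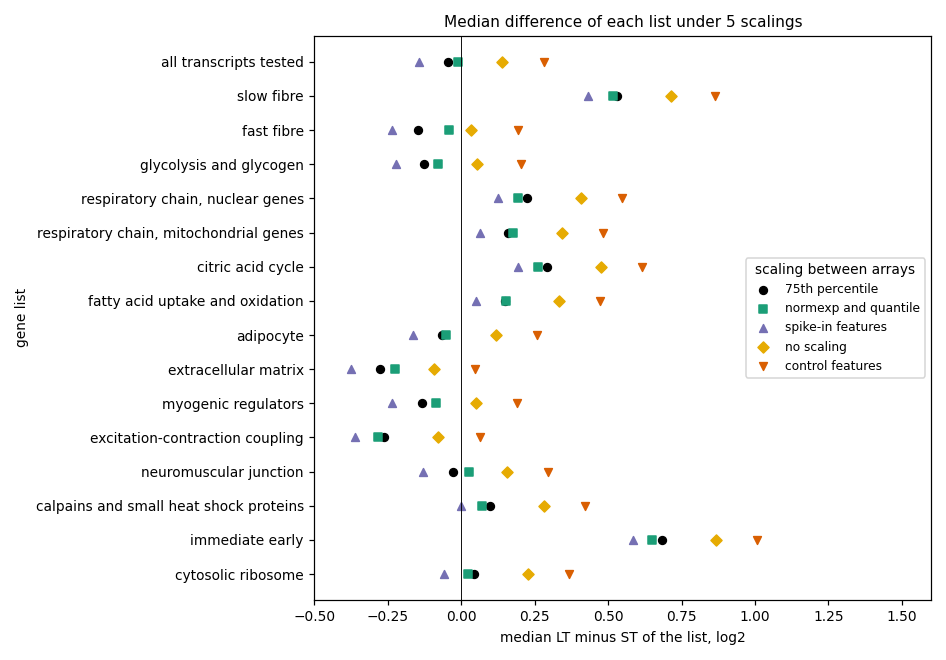
Median LT minus ST (log2) of each list under 5 ways of scaling the arrays. All medians move together with the scaling, from lowest with spike-in features to highest with control features, and the medians of the slow fibre, respiratory chain, citric acid cycle, fatty acid and immediate early lists stay above 0 throughout, while those of the other lists cross 0.

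The myogenic list, which holds transcription factors together with MSTN and CDH15, was divided. Of its 16 transcripts 5 were higher in LT and 8 in ST, against 22.4% and 31.6% of all transcripts. The median of -0.13 turned to 0.19 after control feature scaling and 0.05 without scaling. MYOG, which drives differentiation of myoblasts, ranged from 1.31 to 2.06 in LT (median 1.76) and from 0.39 to 1.44 in ST (median 0.89), with LT higher in 16 of 16 cows by 0.82 ± 0.0624 (1.76-fold, adjusted p = 2.2e-08). MYF5, a factor of early myoblasts, differed by 0.77 ± 0.238 in 12 of 16 cows, with 10 of the 16 ST arrays well above background. MYOD1 differed by 0.03 ± 0.0953 and was not called, and neither was PAX7, a marker of satellite cells (-0.12). MYF6, the factor prominent in mature fibres, was -0.25 ± 0.0716, which turned to 0.08 after control feature scaling. MEF2A (-0.20) and CDH15 (-0.22) turned to 0.13 and 0.10 in the same way.

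At the neuromuscular junction some receptor subunits were higher in LT, and the call of CHRNG the other way depended on the processing. CHRNE, the adult epsilon subunit, was higher in LT in 16 of 16 cows by 0.62 ± 0.0703 (adjusted p = 1.5e-06), beside CHRNA1. CHRNG, the fetal gamma subunit, differed by -0.32 ± 0.149, which turned to 0.01 after control feature scaling, and acetylcholinesterase (ACHE) by -0.70 ± 0.253, and neither was called with slide as a random block (adjusted p at most 0.27 and 0.31). The beta and delta subunits (CHRNB1, CHRND) lay between -0.04 and 0.02 and were not called. In all, 4 of 13 transcripts were higher in LT and 2 in ST, a total of 46.2% against 54.0% of all transcripts. The list median of -0.03 changed sign between scalings.

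Excitation-contraction coupling was represented by 14 transcripts (8 genes), of which 9 were higher in ST, against 31.6% of all transcripts, and 0 in LT. The median of -0.26 turned to 0.06 after control feature scaling, where 1 was called higher in ST and 2 in LT. PPP3R1, the regulatory subunit of calcineurin, was higher in ST in 16 of 16 cows, with ranges of -5.11 to -4.34 in LT and -4.34 to -3.41 in ST and a difference of -0.74 ± 0.0918. The catalytic subunit PPP3CB (-0.29), the calcium channel subunit CACNB1 (-0.31) and SRL, a protein of the sarcoplasmic reticulum (-0.32), differed less and turned to 0.03, 0.01 and 0.01 after control feature scaling.

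Proteolysis and heat shock genes bear on tenderness and were listed for that reason. Of 30 transcripts 12 were higher in LT and 9 in ST, against 22.4% and 31.6% of all transcripts. The median of 0.10 fell to just below 0 with spike-in features. CAST, which encodes calpastatin, the inhibitor of calpains, ranged from -0.54 to 0.29 in LT (median -0.04) and from 0.45 to 1.02 in ST (median 0.75). No array overlapped, and the difference was -0.81 ± 0.0652 in 16 of 16 cows (1.75-fold, adjusted p = 3.7e-08). The calpain genes CAPN2 (-0.31) and CAPN3 (-0.20) turned to 0.01 and 0.12 after control feature scaling. The small heat shock protein genes CRYAB (0.61 ± 0.13) and HSPB6 (0.31) and the co-chaperone genes DNAJB1 (0.63) and DNAJA1 (0.37) were higher in LT, and HSPA5, a chaperone of the endoplasmic reticulum, was -0.23, or 0.09 after control feature scaling.

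Immediate early genes, which are induced within minutes of a stimulus, were higher in LT. Of 10 transcripts (7 genes) 7 were called higher in LT, against 22.4% of all transcripts, and 0 in ST. The median of 0.68 stayed above 0 under the 5 scalings. FOS ranged from -1.64 to 3.41 in LT (median 1.09) and from -3.38 to 2.49 in ST (median -0.29), and LT was higher in 14 of 16 cows by 1.19 ± 0.232 (2.28-fold, adjusted p at most 0.00076). EGR1 (1.11 ± 0.263) and ATF3 (1.02 ± 0.229) spread as widely between cows, while DUSP1 differed by 0.70 ± 0.0788 in 16 of 16 cows. The probes of JUNB disagreed, with 0.33 called and -0.03 not called, and JUN was not called (-0.07).

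Of 37 extracellular matrix transcripts 15 were called higher in ST, against 31.6% of all transcripts, and 2 higher in LT, a total of 45.9% against 54.0%. The median of -0.28 turned to 0.05 after control feature scaling, where 2 were called higher in ST and 9 in LT, and in stressed cows 4 and 6 were called. COL12A1, a collagen of dense connective tissue, differed by -0.85 ± 0.218 in 13 of 16 cows, MGP by -0.59, COL1A1 by -0.47 and the proteoglycan BGN by -0.46. COL4A2, a basement membrane collagen, was 0.39 ± 0.125 higher in LT.

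Few adipocyte genes were called. Of 22 transcripts 1 was higher in LT and 5 in ST, a total of 27.3% against 54.0% of all transcripts. The list median of -0.06 turned to 0.26 after control feature scaling and 0.12 without scaling. That median was 0.34 in the control diet cows alone and -0.37 in the EP diet cows alone, although no transcript of the array was called for a muscle difference that depended on diet. SCD, the desaturase that makes oleic acid, ranged from -0.55 to 1.80 in LT and from 0.43 to 2.74 in ST (-0.63 ± 0.2, adjusted p at most 0.038), a call that was lost with slide as a random block (adjusted p at most 0.16). GPAM, which starts triglyceride synthesis, was 0.38 ± 0.121 higher in LT. CFD, the protease adipsin, was -0.33 in 11 cows and -0.01 after control feature scaling, and its call was lost with slide as a random block (adjusted p = 0.17). A probe set for ADFP, which coats lipid droplets, was -0.33 in 14 cows and -0.003 after control feature scaling, and also lost its call with that block (adjusted p at most 0.30).

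Of 81 transcripts of the cytosolic ribosome 27 were called higher in LT and 17 in ST, a total of 54.3% against 54.0% of all transcripts, none by more than 0.37 in size. The balance followed the scaling, with 46 and 0 called with control features and 5 and 19 with spike-in features, where the median of 0.04 turned to -0.06, and in stressed cows 11 and 26 were called. RPL35A was -0.37 ± 0.0496 in 16 of 16 cows and RPS9 0.32 ± 0.0601 in 15. RPS27L (-0.27), a paralogue of a ribosomal protein gene that was listed for its symbol only, RPL27 (-0.21) and RPS2 (-0.22) turned to 0.06, 0.12 and 0.10 after control feature scaling.

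Markers of other cell types were measured beside these lists, and their part in the differences was not tested. The 3 endothelial markers tested of 9 listed were all higher in LT, against 22.4% of all transcripts: ESAM by 0.65 ± 0.0854, TIE1 by 0.38 and PECAM1 by 0.35. Of the smooth muscle markers only ACTA2 passed for its probe (0.57 ± 0.223, LT higher in 11 of the 15 cows with both spots usable). ACTA2 had medians of 0.78 in LT and 0.03 in ST and no call with slide as a random block (adjusted p = 0.17). The probes of TAGLN (0.40), MYH11 (0.36) and CNN1 (-0.12) did not pass. In all, 2 of 7 smooth muscle transcripts were called, 28.6% against 54.0% of all transcripts. Of 7 fibroblast transcripts 1 was called (14.3% against 54.0% of all transcripts), COL1A1, higher in ST. DCN (-0.26), COL3A1 (-0.25) and LUM (-0.11) were not called. The immune marker PTPRC (0.06) was not called, and no blood marker was among the tested probes. Of 17 skeletal muscle marker transcripts 12 were higher in ST, against 31.6% of all transcripts, and 2, both of TNNT1, in LT. The list median of -0.19 turned to 0.14 after control feature scaling, where 0 were called higher in ST and 2 in LT. ACTA1, the actin of skeletal muscle, had medians of 5.46 in LT and 5.68 in ST and CKM, muscle creatine kinase, 5.65 and 5.85, so that both muscles were high for the defining genes of the tissue. Their differences of -0.21 and -0.25 turned to 0.11 and 0.05 after control feature scaling, those of NEB (-0.23) and MB (-0.16) to 0.09 and 0.14, and DES was -0.36.

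The same comparison was made in the 16 stressed cows, which shared no array or animal with it but were hybridised on the same slides. There 890 transcripts (20.7%) were higher in LT and 1093 (25.5%) higher in ST. As in the limited stress cows that balance depended on scaling, and it turned to 356 and 215 with control features, 1003 and 616 without scaling and 763 and 439 with spike-in features. Calls shared with the limited stress cows numbered 686 higher in LT, 71.2% of the limited stress calls and 77.1% of the stressed calls, and 951 higher in ST, 70.2% and 87.0%. Opposite calls were made for 5 transcripts. Of the 2-fold transcripts, 51 of 55 higher in LT and 51 of 52 higher in ST were called the same way in stressed cows, and all 107 had the same sign. MYBPH differed by 4.42, ENSBTAT00000016117 by 3.87, PVALB by -3.94, Target1005 by -2.99 and MSTN by -1.02 in the stressed cows.

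The muscle difference differed between limited stress and stressed cows for 6 transcripts (0.140%), with 735 of 10420 probes at an unadjusted p below 0.05. MYF6 was the clearest of those with a gene name. LT minus ST was -0.25 ± 0.0716 in limited stress cows and 0.39 in stressed cows, a difference between them of -0.64 ± 0.114 (limma, adjusted p = 0.0034), and its 5-probe set Target1086 gave the same -0.64. For MYF6 it was -0.37 with control features (limma, adjusted p = 0.54), and no transcript of the array passed this test with control features, without scaling or with no replicate block. DLL4, a Notch ligand of endothelial cells, differed by 0.70 ± 0.121 in limited stress cows and by -0.10 in stressed cows. For DLL4 the test was not passed with spike-in features (limma, adjusted p = 0.37).

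**Figure D5:**
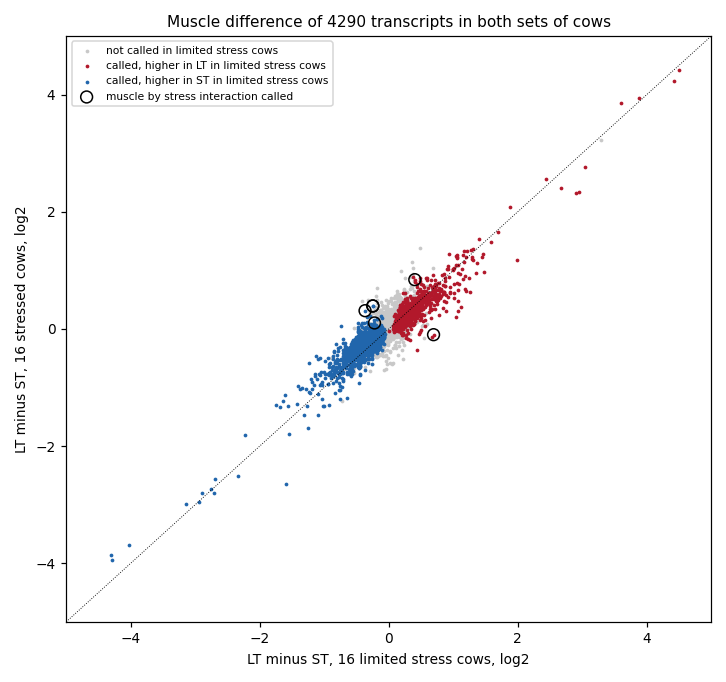
LT minus ST (log2) of the 4290 transcripts in the 16 limited stress cows (x axis) and in the 16 stressed cows (y axis), with the line of equality dotted. Colours mark the calls in limited stress cows, and rings mark the 6 transcripts whose muscle difference differed between the sets of cows. The large differences, PVALB at the lower left and MYBPH at the upper right, lie close to the line.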

How the data were processed

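Whole-muscle RNA of 16 limited stress cows was measured in LT and ST on 1-colour (Cy3) Agilent custom arrays. Per the file headers, the authors extracted spot intensities with Feature Extraction 10.1.1.1, which subtracted background and detrended each array without normalization between arrays, and deposited these intensities. They also deposited a series table that holds the same intensities, not log2-transformed. It was used as an alternative in which outlier spots were kept. The study scaled arrays by control probes. Most control features of the deposited arrays lie near background, so log2 signal minus the 75th percentile of the array was used here. Outlier spots and control spots were left out, and spots of a probe were averaged. The tests took probes that 11 or more of the 32 arrays flagged well above background, 10420 probes of 4290 transcripts. Precision is limited by the number of arrays.

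Tests used limma 3.58.1 (statmod 1.5.0, R 4.3.3) with cow as a block, two-sided, and the 80% call rule of the study at an adjusted p of 0.1. A printed SE is the mean over the probes of a transcript, and an adjusted p is the highest of its probes. Replicate numbers are cow numbers in the labels, so both muscles came from the same animal: deviations of the muscles of a cow correlated with r = 0.0574 to 0.535 (median 0.408), and were highest with their own partner in 12 of 16 cows. Of 1945 coded probe sets, 872 took a gene name from 25 bases in a row shared with named probes of 1 gene alone. In all, 3406 transcripts had a gene name. Positions are those of the array files (Btau 3.1), and exon or intron was not assigned because no annotation of that build was used here.

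Gene lists and members were chosen with earlier results of these data known. Named genes were the 12 largest called differences in each direction with a gene name and the same sign in at least 15 cows, the 5 largest unnamed sets, all slow fibre, fast fibre, patterning, myogenic and marker genes (some are not reported here), up to 4 called members in each direction of other lists, and transcripts of the stress interaction. Alternatives were other scalings, filters, thresholds and blocks, each diet alone, and the cows of each slide left out. Spike-in scaling was chosen after seeing the data. The fit was tested on simulated data with 100 probes changed by 0.5 and 100 by 1 on the log2 scale.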

Additional observations from a re-analysis of the deposited data

Results flagged for a closer look

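For 6 transcripts the LT minus ST difference itself differed between limited stress and stressed cows, by a test of that difference in limma over all 64 arrays. The difference between the sets of cows was -0.64 for MYF6 and -0.64 for its probe set Target1086, where ST was higher in limited stress cows and LT in stressed cows. The unnamed set Target1864 behaved likewise, with -0.37 in limited stress cows, 0.31 in stressed cows and a difference of -0.68 (adjusted p at most 0.004). DLL4 gave 0.79 (adjusted p = 0.028). The probe A_73_101899, at chr4:49243859-49243913, gave -0.32 (adjusted p = 0.037). With spike-in features DLL4 and A_73_101899 were not called (limma, adjusted p = 0.37 and 0.27), and A_73_101899 also was not after quantile normalization (0.17). MYF6, Target1086 and Target1864 passed under both. Target717 was higher in LT in both sets of cows, by 0.40 and 0.84, a difference of -0.44 that 1 of its 5 probes did not pass (highest adjusted p 0.19). No transcript was called without the replicate block or after control feature scaling.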

How the results depend on the processing

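Muscle and slide cannot be told apart, and a block for scan day was not run because 0 scan days held both muscles. The direction of many small differences changed between scalings. The median probe difference was -0.03 with the 75th percentile, 0.29 with control features, 0.15 without scaling, -0.13 with spike-in features and -0.004 with quantile normalization. Probes dim in a muscle (CRHR2, CYP19, NPPC, OXTR, ANXA9, Homolog13) give folds of uncertain size. The cause of these changes was not tested.

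Of 2318 transcripts called, 1511 passed at an adjusted p of 0.01, with 1129 in stressed cows and 3 for the stress interaction. The EP diet cows alone gave 1437 and leaving out the cows of 1 slide gave 2001 to 2237 calls, with 98 to 133 past 2-fold. Quantile normalization gave 42 transcripts past 2-fold, 23 higher in LT and 19 in ST. In stressed cows control feature scaling gave 571 calls and spike-in scaling 1202, more of them higher in LT in both cases. The pairing by cow mattered: with no replicate block 1859 were called, 770 higher in LT and 1089 higher in ST, and the stress interaction fell from 6 to 0. It also was 0 with control features and 0 without scaling. Slide as a random block left 746 and 1081. The series table gave 955 and 1341, no filter on dim probes 922 and 1672 of 5449, and probes above background on all 32 arrays 893 and 1308 of 3809.

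With control features these differences turned sign: ACTA1 0.11, ATP2A1 0.23, ATP5S 0.060, A_73_101899 0.10, CACNB1 0.012, CAPN2 0.011, CAPN3 0.12, CDH15 0.10, CHRNG 0.0086, CKM 0.050, COX1 0.22, COX4NB 0.18, HSPA5 0.093, MB 0.14, MEF2A 0.13, MYF6 0.077, MYH1 0.15, MYH7 0.23, MYL1 0.19, MYOZ1 0.22, NEB 0.090, PPP3CB 0.032, RPL27 0.12, RPS27L 0.057, SLC27A1 0.18, SRL 0.0075, TNNC2 0.14, TPM1 0.19, Target1086 (MYF6) 0.077 and Target1450 (RPS2) 0.098. So did the list medians of fast fibre 0.19, glycolysis and glycogen 0.20, adipocyte 0.26, extracellular matrix 0.046, myogenic regulators 0.19, excitation-contraction coupling 0.062, neuromuscular junction 0.29, fibroblast marker 0.13 and skeletal muscle marker 0.14. Without scaling COX1 was 0.080, COX4NB 0.035, MB 0.034, MYH7 0.076, MYL1 0.024, MYOZ1 0.079, SLC27A1 0.041, TNNC2 0.0086 and TPM1 0.045, and the list medians were 0.035 for fast fibre, 0.053 for glycolysis and glycogen, 0.12 for adipocyte, 0.049 for myogenic regulators and 0.15 for the neuromuscular junction. Spike-in scaling turned the medians of calpains and small heat shock proteins (-0.00074) and of the cytosolic ribosome (-0.057). The neuromuscular junction median was 0.025 after quantile normalization and 0.0085 with probes above background on all arrays.

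Over all alternatives, the 143 named transcripts were counted as unchanged 2841 times, lost their call 224 times, gained a call 25 times and turned sign 39 times. A transcript called in neither setting was counted as unchanged whatever its sign. Sign changes of that kind, such as MYOD1 from 0.03 to -0.07 with spike-in features, are thus not among the 39. With slide as a random block ACTA2, CAPN3, CFD, CHRNG, COX1, MYH7, MYL3, MYOZ1, SCD, SLC27A1, NDUFC1 (Target1157) and ACHE were among those no longer called.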

Other observations

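The unnamed set Homolog78 was singled out after its values were seen. Of its 4 tested probes 3 differed by 4.19, 4.35 and 4.49, higher in LT, while the last differed by 0.11 (adjusted p = 0.30), so that the set missed the 80% rule. Another unnamed set, Target785, also chosen after its values were seen, was higher in LT in 16 of 16 cows with 5 probes that ranged from 0.82 to 3.61.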
